A study of Homo sapiens with 6 samples.

Results

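Albumin (ALB), alpha-fetoprotein (AFP), afamin (AFM) and the vitamin D-binding protein (GC) are the 4 genes of the albumin family, and ZHX2 and ZBTB20 encode repressors that act on AFP. They were followed in HepG2, a cell line from a human liver carcinoma with many functions of hepatocytes, which expresses both ALB and AFP. The 6 genes were chosen by symbol. Of them, 5 were found among the 18404 genes of the deposited log2 FPKM table and all 6 among the 60504 genes of the count table, where AFM was found through its Ensembl ID. The treated cells received 10 µM oridonin, a diterpenoid from a medicinal Isodon plant, and the control cells 0.1% DMSO, each for 48 h in DMEM, with 3 libraries per treatment. The labels do not state the DMSO content of the oridonin wells, nor whether the 3 samples of a treatment came from separate cultures, so the spread behind the p-values is that of these samples and could be technical.

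ALB carries fatty acids, bilirubin and drugs in blood and maintains its oncotic pressure, and AFP is its counterpart in fetal plasma. AFM binds vitamin E, and GC carries vitamin D and scavenges actin. Around birth the liver silences AFP while it keeps ALB on, and work in mice named Zhx2 and Zbtb20 as genes needed for that silencing. Tumours of hepatocyte origin often express AFP again. In human and rodent liver, transcription of ALB and AFP rests on C/EBP, FOXA and nuclear factor I proteins, among others, bound near their start sites.

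ALB (ENSG00000163631) lies on hg38 chromosome 4, 73397114 to 73421412, plus strand, and AFP (ENSG00000081051) follows at 73431138 to 73456174 on the same strand, 9.73 kb further on by the deposited annotation. AFM (ENSG00000079557) comes next at 73481683 to 73504001 in GENCODE 29, also on the plus strand. GC (ENSG00000145321) is on the minus strand at 71741693 to 71804041, 1593 kb before ALB. The start sequences of the 3 tandem genes are shown because ALB and AFP changed together while AFM, beside them, was almost silent. They are the 150 bases before each start site in RefSeq on GRCh38.p14, plus strand, at chr4:73404137-73404286 for ALB, chr4:73436071-73436220 for AFP and chr4:73481595-73481744 for AFM. For ALB and AFP these windows lie inside the deposited gene spans, which begin further upstream. Capitals mark GTTAAT and GTTAAC, a pair of motifs found in promoters of liver genes.
ALB: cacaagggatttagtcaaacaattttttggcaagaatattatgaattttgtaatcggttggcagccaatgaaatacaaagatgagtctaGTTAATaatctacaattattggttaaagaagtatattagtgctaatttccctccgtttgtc
AFP: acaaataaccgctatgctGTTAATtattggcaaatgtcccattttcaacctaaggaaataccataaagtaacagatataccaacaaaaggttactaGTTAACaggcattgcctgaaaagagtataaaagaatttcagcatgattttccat
AFM: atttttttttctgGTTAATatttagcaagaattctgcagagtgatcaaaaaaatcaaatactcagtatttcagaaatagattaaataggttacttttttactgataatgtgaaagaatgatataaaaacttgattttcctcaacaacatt

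GTTAAT stood 61 bases before the start in ALB, 132 in AFP and 137 in AFM, and AFP held GTTAAC as well at 54. Among 35116 RefSeq windows of the same length, 3.52% held GTTAAT and 1.32% held GTTAAC, counting both strands. TTGGCA, the core bound by nuclear factor I, was found 124 and 93 bases before the start of ALB and 124 bases before that of AFP, but was not among the letters of the AFM window, and 6.54% of all windows held it. CCAAT lay 86 bases before the start of ALB. On the other strand it lay at 44 in ALB and at 125 in AFP, where it overlaps TTGGCA, against 23.5% of all windows. TATAAA lay at 29 in AFP and at 30 in AFM but not in the ALB window, against 6.71% of all windows. These matches describe letters and not bound sites, and the RefSeq table gave windows for 4 of the 6 genes, ZBTB20 being the other.

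Total counts per library ran from 22250202 to 30739574. All 10 hepatocyte markers had reads in every library, and their summed level was 14646, 13515 and 12751 CPM in oridonin libraries 1 to 3, against 24176, 22588 and 21623 CPM in DMSO libraries 1 to 3. CPM is the usual read count scaled to the size of its library, here after TMM normalization. A gene was called when the quasi-likelihood test of edgeR gave a Benjamini-Hochberg adjusted p under 0.05 over all 15116 tested genes. By that rule 41.9% of all tested genes were called, 21.3% lower and 20.6% higher with oridonin, so that 49.2% of calls were higher, or 65.5% with total-count scaling, which moved the median of all genes to 0.09. Oridonin and DMSO values had no overlap in 51.6% of the genes. Of the 6 genes 4 passed the filter on low counts and were tested, and all 4 were called, ALB, AFP and ZHX2 lower and ZBTB20 higher. AFM and GC were not tested in that fit.

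ALB fell with oridonin and stayed one of the most abundant transcripts of the cells. It was at 3975, 4352 and 3749 CPM in oridonin libraries 1 to 3, against 7030, 7090 and 6472 CPM in DMSO libraries 1 to 3. The groups were far apart, with oridonin library 2 the highest of its group and DMSO library 3 the lowest of its own. The mean was 4025 ± 305 CPM with oridonin and 6864 ± 341 CPM with DMSO (SD, n = 3 each), which the fit put 41.4% lower, at a log2 fold change of -0.77 ± 0.06 (SE, edgeR adjusted p = 1.73e-08). Of all tested genes, 3.48% had a lower log2 fold change. Per length, ALB averaged 1198 ± 89.7 FPKM with oridonin and 2021 ± 86.6 FPKM with DMSO (SD, n = 3 each). That was rank 14 of 18404 genes with oridonin and rank 6 with DMSO. ALB took between 0.382% and 0.446% of the reads of an oridonin library, against 0.621% to 0.693% of a DMSO library. In bulk RNA, fewer cells that express a gene and less transcript per cell cannot be told apart.

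AFP fell almost as far as ALB. Its level was 809, 875 and 743 CPM in oridonin libraries 1 to 3, against 1348, 1365 and 1244 CPM in DMSO libraries 1 to 3. The order of the libraries within each treatment was that of ALB, with library 2 highest and library 3 lowest in both. AFP averaged 809 ± 66.0 CPM with oridonin and 1319 ± 65.2 CPM with DMSO (SD, n = 3 each), 38.7% lower, at a log2 fold change of -0.71 ± 0.06 (SE, edgeR adjusted p = 8.54e-08). Per length, it averaged 249.5 ± 20.0 FPKM with oridonin, rank 122, and 402 ± 17.2 FPKM with DMSO, rank 78 (SD, n = 3 each).

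**Figure D1:**
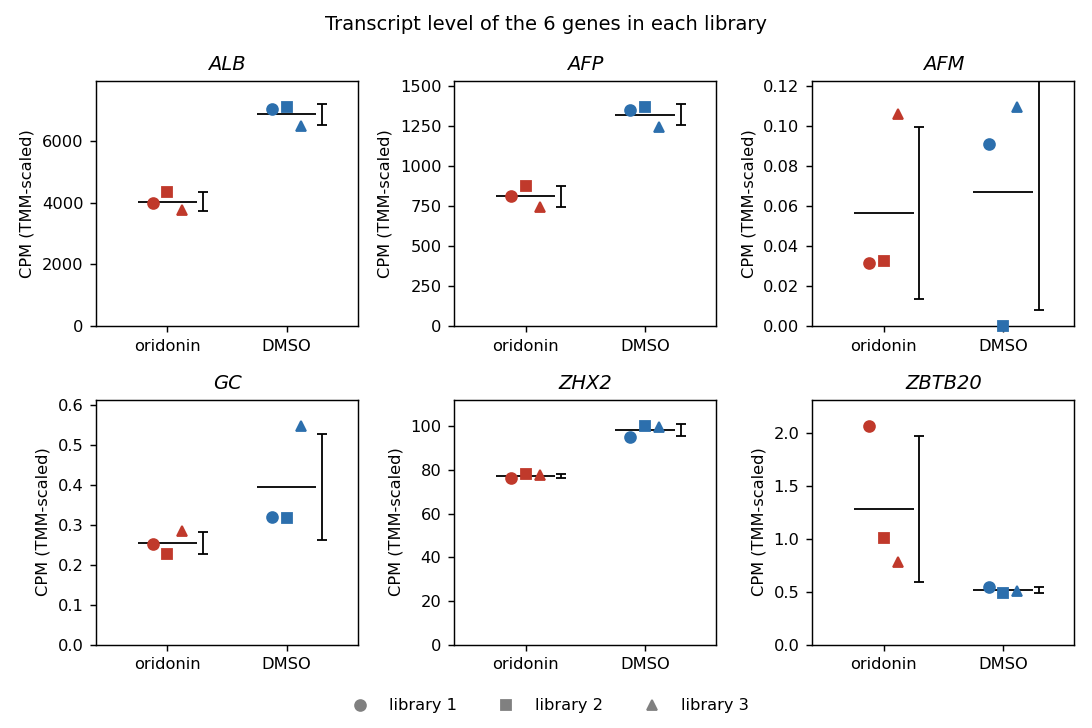
Level of each of the 6 genes in CPM with TMM scaling (vertical axis from 0, a scale for each gene) in the 3 oridonin libraries at left and the 3 DMSO libraries at right; the horizontal line is the mean and the bar beside it the SD. ALB, AFP and ZHX2 lie lower in all 3 oridonin libraries, AFM and GC lie under 0.6 CPM in every library, and ZBTB20 reaches 2.07 CPM in oridonin library 1.

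A ratio of 2 genes within a library does not depend on the scaling between libraries. Reads on ALB outnumbered those on AFP 4.91, 4.97 and 5.05 times in oridonin libraries 1 to 3, against 5.22, 5.19 and 5.20 times in DMSO libraries 1 to 3. All 3 oridonin libraries lay under all 3 DMSO libraries, whose ratios were nearly the same. On the log2 scale the ratio was 2.32 ± 0.02 with oridonin and 2.38 ± 0.00321 with DMSO (SD, n = 3 each), a difference of -0.06. An exact two-sided permutation test gave p = 0.10, the smallest that 3 against 3 libraries allow, and 0.20 after adjustment over the 4 ratios computed. ALB made up 83.1% (95% Clopper-Pearson interval 82.9% to 83.3%), 83.3% (83.1% to 83.4%) and 83.5% (83.3% to 83.7%) of the reads on both genes in oridonin libraries 1 to 3. In DMSO libraries the share ran from 83.86% to 83.91%, and the lowest lower bound was 83.71%. These intervals cover counting error only, since the labels name no molecular identifiers and reads are not independent molecules. Per length, ALB exceeded AFP 4.801 ± 0.0509 times with oridonin and 5.03 times in each DMSO library (n = 3 each), on values deposited to 2 decimals of log2. The family transcripts are distinct in sequence: the longest run that an ALB and an AFP transcript of GENCODE 29 share is 14 bases, and no run of 31 bases is shared by any pair of the 4 family genes.

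AFM, next to AFP, was at the limit of detection. It had 1, 1 and 3 reads in oridonin libraries 1 to 3, against 2, 0 and 3 reads in DMSO libraries 1 to 3. No library exceeded 3 reads, the level that a count of 0 still allows, so no fold change is given, and an exact two-sided permutation test on CPM gave p = 0.90. The AFM gene is absent from the log2 FPKM table, which holds only genes with a read in every library.

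GC was detected in every library at a very low level. It had 8, 7 and 8 reads in oridonin libraries 1 to 3, against 7, 9 and 15 reads in DMSO libraries 1 to 3. As levels these were 0.251, 0.227 and 0.284 CPM with oridonin and 0.319, 0.316 and 0.548 CPM with DMSO, so the groups did not overlap and DMSO library 3 stood above the rest. The mean was 0.254 ± 0.0283 CPM with oridonin and 0.394 ± 0.133 CPM with DMSO (SD, n = 3 each), with an exact two-sided permutation p of 0.10, the smallest possible. Limma on the deposited log2 FPKM values gave a log2 fold change of -0.57 ± 0.36 (SE, adjusted p = 0.27). The log2 ratio of GC to ALB differed by 0.18 between oridonin and DMSO, and that of GC to AFP by 0.12, both with overlapping groups (exact permutation p = 0.60 and 0.80, adjusted 0.80 each). A difference in GC was not detectable at 7 to 15 reads a library.

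ZHX2 (ENSG00000178764; chromosome 8, 122781394 to 122974512, plus strand), a zinc finger and homeobox protein, fell by a smaller amount. It was at 76.2, 78.0 and 77.7 CPM in oridonin libraries 1 to 3, against 95.01, 100.2 and 99.8 CPM in DMSO libraries 1 to 3. The oridonin libraries were within 2 CPM of each other and well under each DMSO library. This was 21.4% lower, with a log2 fold change of -0.35 ± 0.05 (SE, edgeR adjusted p = 2.58e-05). Per length, ZHX2 averaged 16.5 ± 0.328 FPKM with oridonin and 20.7 ± 0.783 FPKM with DMSO (SD, n = 3 each), ranks 2910 and 2319 of 18404 genes.

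ZBTB20 (ENSG00000181722; chromosome 3, 114338094 to 115147271, minus strand), a BTB and zinc finger protein, was higher with oridonin but close to the limit of detection and uneven. It had 66, 31 and 22 reads in oridonin libraries 1 to 3, against 12, 14 and 14 reads in DMSO libraries 1 to 3. The groups did not overlap, although oridonin library 1 held more reads than the other 2 oridonin libraries together. Its level was 2.07, 1.01 and 0.780 CPM with oridonin, against 0.547, 0.492 and 0.511 CPM with DMSO. The fit gave a log2 fold change of 1.33 ± 0.37 (SE, edgeR adjusted p = 0.00856), or 2.51-fold higher. Without oridonin library 1 it was 0.80 and was not called (edgeR adjusted p = 0.0727), and limma on the deposited log2 FPKM values gave 1.21 (adjusted p = 0.075). Genes that overlap ZBTB20, among them 5 antisense genes, had at most 3 reads each over all 6 libraries.

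Markers of other cell types also moved with treatment. Among all tested genes, 51.6% had no overlap between treatments in either direction. The 12 B and plasma cell markers, of which 6 were higher in each oridonin library than in any DMSO library, summed to 36.3, 85.8 and 88.1 CPM in oridonin libraries 1 to 3, against 4.65, 12.1 and 18.99 CPM in DMSO libraries 1 to 3. MS4A1, a surface protein of B cells, had no read in any library. Oridonin library 1 had the lowest sum of these markers among oridonin libraries. CD79A alone gave 16.9, 15.4 and 20.7 CPM of these sums in oridonin libraries 1 to 3. In DMSO libraries 1 to 3 it gave 1.37, 1.16 and 1.46 CPM. Of 10 gut epithelial markers 7 were higher in each oridonin library than in any DMSO library, while the sum, mostly VIL1, was 308 to 318 CPM with oridonin and 383 to 402 CPM with DMSO. Of 8 endothelial and stromal markers 4 were likewise higher in each oridonin library, and of the 6 tested PECAM1, COL1A1 and ACTA2 were called higher and PDGFRB and CDH5 lower. Their sum was 52.5 to 55.3 CPM with oridonin and 74.0 to 81.2 CPM with DMSO, mostly from PDGFRB, at 32.1 ± 1.70 CPM with oridonin and 60.8 ± 4.47 CPM with DMSO (SD, n = 3 each). The 7 markers of other blood cells summed to 420 to 451 CPM with oridonin and 679 to 712 CPM with DMSO, nearly all of it LYZ. PTPRC, which marks leukocytes, had only 1, 3 and 2 reads in oridonin libraries 1 to 3 and no read in DMSO. The part of these genes in the ZBTB20 result was not tested.

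The distance between both regulators was large on any scale. ZHX2 exceeded ZBTB20 by 106 times in mean FPKM with oridonin and by 335 times with DMSO. Within libraries the log2 ratio of reads was 6.04 ± 0.75 with oridonin and 7.57 ± 0.12 with DMSO (SD, n = 3 each), a difference of -1.53 with no overlap (exact permutation p = 0.10, adjusted 0.20). Ordered per length in either treatment, ALB came first, then AFP, then ZHX2, each apart from the next by far more than the spread. GC and ZBTB20 came last of the 5 genes with FPKM values, which AFM lacks. With oridonin their ranges overlapped, at 0.0961 to 0.121 FPKM for GC and 0.0954 to 0.25 FPKM for ZBTB20, while with DMSO GC lay above ZBTB20, at 0.132 to 0.230 against 0.0591 to 0.0652 FPKM.

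**Figure D2:**
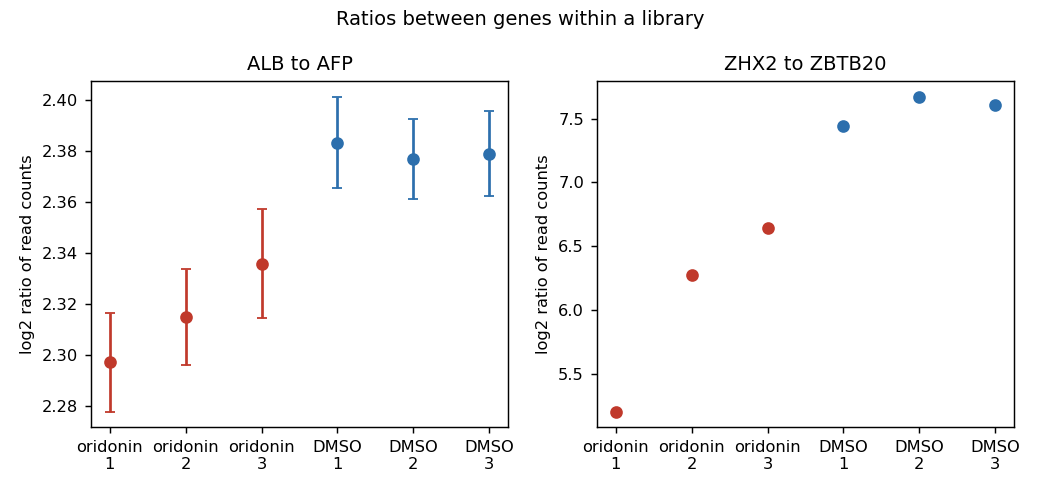
Log2 ratio of read counts of ALB to AFP (left, bars are 95% Clopper-Pearson intervals for counting error) and of ZHX2 to ZBTB20 (right) in each library, oridonin left of DMSO, on axes that do not start at 0. The ALB to AFP ratio lies between 2.30 and 2.34 with oridonin and between 2.38 and 2.38 with DMSO, and the ZHX2 to ZBTB20 ratio is lowest in oridonin library 1, at 5.20.

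The other ZHX genes and ZFHX3, a large homeobox protein that represses the AFP enhancer in human hepatoma cells, did not all move with ZHX2. Of the 5 tested genes in this list, which includes ZHX2 and ZBTB20, 2 were lower and 2 higher, against 21.3% and 20.6% of all tested genes, and the median of the list was -0.24 on the log2 scale (0.01 over all tested genes); with total-count scaling 1 was lower and 2 were higher. ZHX1 was at 23.3 ± 0.480 CPM with oridonin and 27.7 ± 1.21 CPM with DMSO (SD, n = 3 each), a log2 fold change of -0.25 (edgeR adjusted p = 0.0057, and 0.0546 with total-count scaling). ZHX3 rose to 37.6 ± 1.99 CPM with oridonin, against 27.6 ± 1.24 CPM with DMSO (SD, n = 3 each), a log2 fold change of 0.45 ± 0.07 (SE). ZFHX3 was at 43.8, 30.2 and 34.5 CPM in oridonin libraries 1 to 3, against 44.9, 38.9 and 44.4 CPM in DMSO libraries 1 to 3. Its groups overlapped through oridonin library 1, and it was not called (log2 fold change -0.24 ± 0.12, SE, edgeR adjusted p = 0.156). It was called lower without that library, at -0.40 (edgeR adjusted p = 0.00116), and with no filter on low counts, at -0.22 (edgeR adjusted p = 0.00592).

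**Figure D3:**
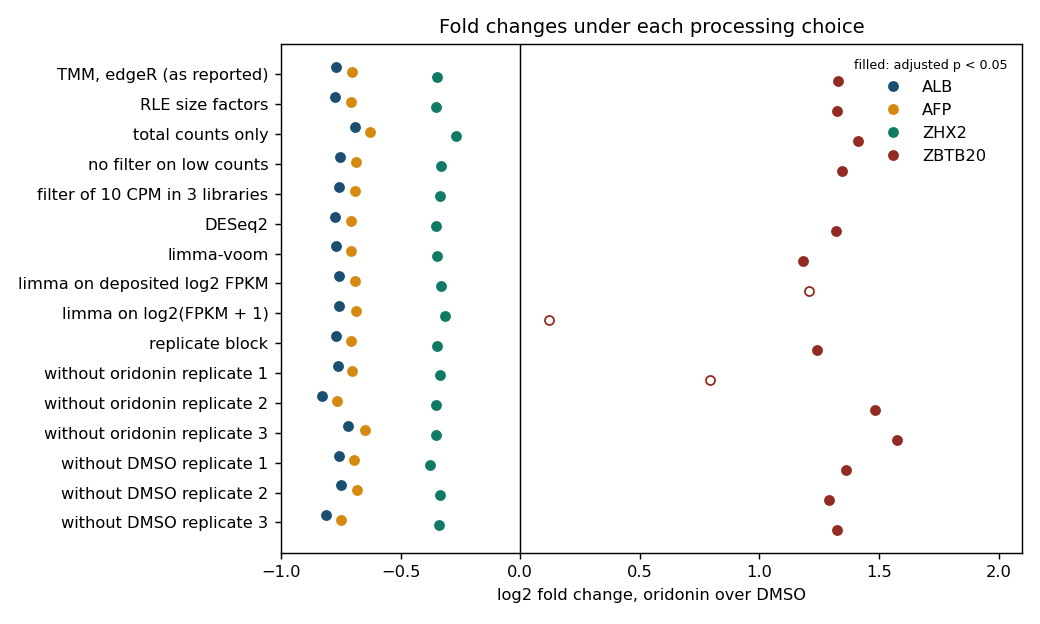
Log2 fold change of ALB, AFP, ZHX2 and ZBTB20, oridonin over DMSO (horizontal axis), as reported and under each of 15 other processing choices (rows). Filled points passed an adjusted p of 0.05. ALB stays between -0.83 and -0.69 and AFP between -0.77 and -0.63, while ZBTB20 is open in 3 rows and has no point under the filter of 10 CPM, which it did not pass.

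Transcripts of proteins that bind the promoters and enhancers of ALB and AFP were mostly lower. Lower calls numbered 21 of 30 tested genes and higher calls 0, and the list's median was -0.28 on the log2 scale, against 21.3% lower and a median of 0.01 over all tested genes. With total-count scaling the list had 19 lower and 1 higher. HNF4A, a nuclear receptor of hepatocytes, was at 254 ± 10.3 CPM with oridonin and 262 ± 7.50 CPM with DMSO (SD, n = 3 each) and was not called, with a log2 fold change of -0.04 that turned to 0.04 with total-count scaling. FOXA1, a pioneer factor of liver enhancers, fell to 68.6, 72.8 and 76.1 CPM in oridonin libraries 1 to 3, against 108, 107 and 117.1 CPM in DMSO libraries 1 to 3 (log2 fold change -0.61 ± 0.06, SE, edgeR adjusted p = 1.92e-07). HLF and NFIL3, an activator and a repressor that share binding sites, both fell, by 0.65 and 0.63 on the log2 scale. ONECUT1, known as HNF6, fell to 3.58 ± 0.575 CPM with oridonin, against 7.26 ± 0.437 CPM with DMSO (SD, n = 3 each). Of the nuclear factor I genes, NFIA and NFIX were called lower, at -0.34 and -0.22 on the log2 scale (edgeR adjusted p = 0.00271 and 0.00579). NFIB was not called, at 0.01 (edgeR adjusted p = 0.965). NFIC, of the same family, was at 89.1 ± 8.27 CPM with oridonin and 78.0 ± 7.39 CPM with DMSO (SD, n = 3 each) and missed the threshold (edgeR adjusted p = 0.0569). Calls of NFIC as higher came under 6 of 15 alternatives, among them no filter (0.21), the filter of 10 CPM (0.20), total-count scaling (0.27), and without oridonin library 1 (0.23) or DMSO library 3 (0.27).

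Of 19 tested oncofetal genes, which like AFP belong to fetal liver or liver tumours, 11 were lower and 3 higher (median -0.24 on the log2 scale), against 21.3% lower and 20.6% higher over all tested genes (median 0.01), and with total-count scaling 9 were lower and 4 higher. IGF2, a fetal growth factor, and PEG10 and PEG3, both expressed from the paternal allele, fell by 1.55, 0.92 and 0.57 on the log2 scale, and HMGA2, a chromatin protein of embryonic cells, fell by 0.56. KRT19, a keratin of bile duct cells, rose to 1268 ± 78.7 CPM with oridonin, against 560 ± 53.0 CPM with DMSO (SD, n = 3 each). HMGA1 rose by 0.56 on the log2 scale. The RNA-binding proteins IGF2BP1 and IGF2BP3 were not called, at 350 ± 8.66 and 72.9 ± 2.25 CPM with oridonin and 348 ± 3.97 and 69.5 ± 3.38 CPM with DMSO (SD, n = 3 each). GPC3 and H19, targets of Zhx2 in mouse liver, were named after their values were seen. GPC3, a cell surface proteoglycan, fell to 1478, 1592 and 1454 CPM in oridonin libraries 1 to 3, against 2002, 2004 and 2029 CPM in DMSO libraries 1 to 3 (log2 fold change -0.42 ± 0.05, SE, edgeR adjusted p = 1.9e-06). H19, an imprinted RNA, was at 0.314, 1.30 and 1.99 CPM in oridonin libraries 1 to 3, against 0.0911, 0.351 and 0.511 CPM in DMSO libraries 1 to 3, with overlapping groups and no call (edgeR adjusted p = 0.0808).

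**Figure D4:**
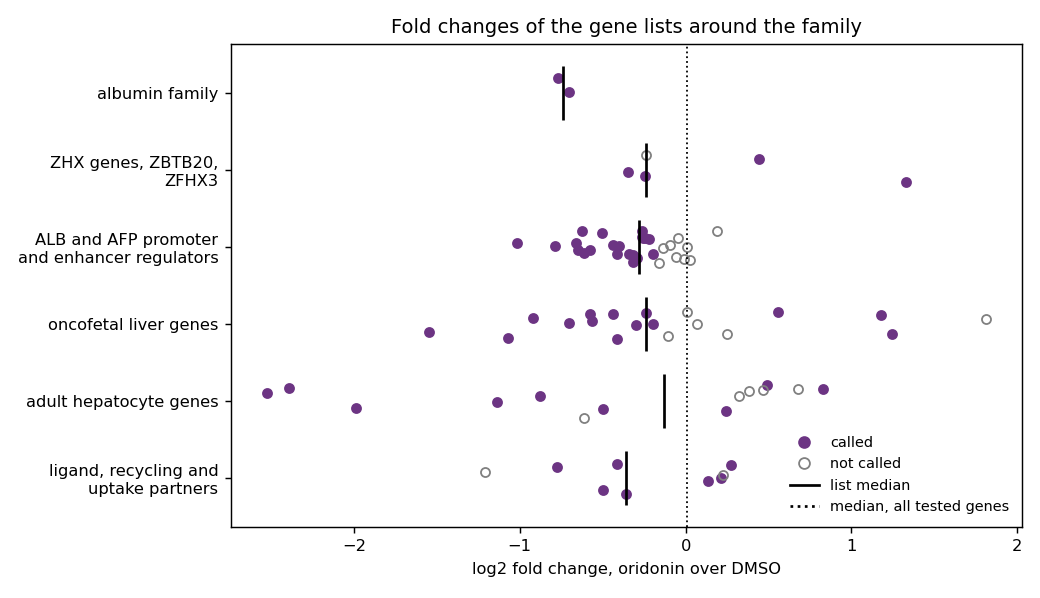
Log2 fold change, oridonin over DMSO, of the tested genes of 6 lists (rows; vertical scatter within a row only separates points). Filled points were called, black bars are list medians and the dotted line is the median of all tested genes, 0.01. The regulators of the ALB and AFP promoters have no called gene to the right of 0, and the adult hepatocyte list spans -2.52 to 0.83.

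Of 28 adult hepatocyte genes 14 were too low to be tested, among them CYP3A4, ADH1B and SLC10A1. Of the 14 tested 6 were lower and 3 higher (median -0.13 on the log2 scale), against 21.3% lower and 20.6% higher over all tested genes, so that the higher calls were near that background. The urea cycle genes ASS1 and ARG1 fell by 1.14 and 2.39 on the log2 scale, and HAL, which starts histidine breakdown, by 1.99. ARG1 was low throughout, at 0.819 ± 0.192 CPM with oridonin and 4.37 ± 0.880 CPM with DMSO (SD, n = 3 each). ADH4, an alcohol dehydrogenase, and UGT2B7, a glucuronosyltransferase whose close paralogs may share reads with it, rose by log2 fold changes of 0.83 and 0.49. TAT and GLS2 were not called, at 1.52 ± 0.298 and 2.46 ± 0.588 CPM with oridonin and 1.14 ± 0.462 and 1.74 ± 0.590 CPM with DMSO (SD, n = 3 each).

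Of 9 tested genes that handle these plasma proteins or their ligands 4 were lower and 3 higher (median -0.36 on the log2 scale), against 21.3% and 20.6% of all tested genes. FCGRT, the receptor that rescues albumin from degradation, fell to 96.6, 103 and 104 CPM in oridonin libraries 1 to 3, against 127, 127 and 135 CPM in DMSO libraries 1 to 3 (log2 fold change -0.36 ± 0.05, SE, edgeR adjusted p = 2.63e-05). Its partner B2M rose by a log2 fold change of 0.21. AMN, part of a receptor complex that takes up albumin in kidney and gut, RXRA, the partner of the vitamin D receptor, and TTPA, which transfers vitamin E, fell by 0.50, 0.41 and 0.77 on the log2 scale. CYP24A1, which inactivates vitamin D, rose to 842 ± 26.0 CPM with oridonin, against 697 ± 10.2 CPM with DMSO (SD, n = 3 each). LRP2 and CYP2R1 were not called, at 0.225 ± 0.213 and 3.48 ± 0.247 CPM with oridonin and 0.531 ± 0.109 and 2.98 ± 0.367 CPM with DMSO (SD, n = 3 each). LRP2 was at 0.471, 0.0974 and 0.106 CPM in oridonin libraries 1 to 3, against 0.410, 0.562 and 0.621 CPM in DMSO libraries 1 to 3, so that oridonin library 1 alone overlapped the DMSO libraries. Its log2 fold change was -1.21 with all libraries (edgeR adjusted p = 0.0584). Without oridonin library 1 it was -2.35 and called lower (edgeR adjusted p = 0.00259), and it was also called lower with voom (-1.51) and with no filter (-1.19).

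The tested genes nearest to ALB and AFP were not called lower. Within 1 Mb of ALB 8 other genes were tested, of which AFP and CXCL5 were lower and CXCL8 higher, and the other 5 were not called. Over all tested genes 21.3% were lower and 20.6% higher. ANKRD17, the nearest protein-coding gene tested before ALB, was at 194 ± 10.5 CPM with oridonin and 194 ± 8.05 CPM with DMSO, and COX18 at 21.6 ± 0.171 CPM with oridonin and 20.6 ± 1.46 CPM with DMSO (SD, n = 3 each). CXCL8, a chemokine, was at 7.53 ± 0.483 CPM with oridonin and 5.42 ± 0.403 CPM with DMSO (SD, n = 3 each), a log2 fold change of 0.47. CXCL5, another chemokine named after its values were seen, had a log2 fold change of -1.81 at no more than 0.475 CPM in any library. Of the 7 genes listed around ALB and GC, 4 were too low to be tested, including RASSF6, which lies beyond AFM.

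Around ZHX2, 12 genes within 1 Mb were tested, of which ZHX1, ATAD2, NTAQ1 and ANXA13 were lower and 1 lincRNA was higher. Over all tested genes 21.3% were lower and 20.6% higher. That lincRNA, ENSG00000272043, starts beside ZHX2 and was higher at 1.13 on the log2 scale. It had 33, 17 and 17 reads in oridonin libraries 1 to 3, against 8, 9 and 9 reads in DMSO libraries 1 to 3. ENSG00000272384, another lincRNA beside the start of ZHX2, was not called, at 0.14 (edgeR adjusted p = 0.675). ATAD2, a chromatin ATPase, fell by 0.77 on the log2 scale, more than ZHX2 itself. NTAQ1, an amidase of protein N termini, was called lower at -0.26. That call was kept under 9 of 15 alternatives and was lost with total-count scaling, among others. DERL1 and TBC1D31 were not called, at 42.2 ± 1.76 and 9.28 ± 0.480 CPM with oridonin and 39.6 ± 1.43 and 10.7 ± 1.78 CPM with DMSO (SD, n = 3 each). Of the 8 listed genes of this region 6 were tested and 3 were lower, or 1 lower and 1 higher with total-count scaling. Around ZBTB20, 10 genes were tested and 2 were lower and 2 higher, against 21.3% and 20.6% of all tested genes. Of 11 listed there 6 were tested, with QTRT2 and GRAMD1C called higher at 0.22 and 1.17 and ZDHHC23 called lower at -0.22; with total-count scaling 3 were higher and none lower. GRAMD1C was under 1 CPM in all libraries, and neither it nor ZDHHC23 was called by DESeq2. The call of GRAMD1C was kept under 5 of 14 alternatives and that of ZDHHC23 under 7 of 15. NAA50 and ATP6V1A were not called, with log2 fold changes of -0.04 and 0.16.

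**Figure D5:**
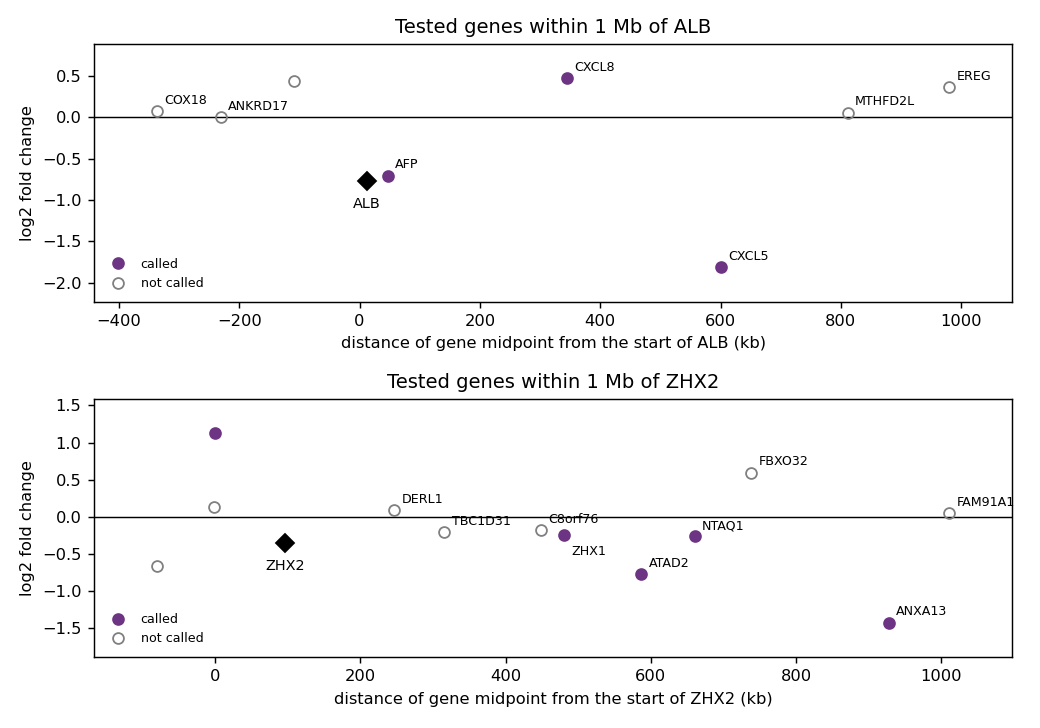
Log2 fold change, oridonin over DMSO (vertical axis), of tested genes within 1 Mb of ALB (top) and ZHX2 (bottom) against the distance of the gene's midpoint from the start of ALB or ZHX2 in kb; the black diamond is ALB or ZHX2, and non-coding genes have no name. AFP at -0.71 lies beside ALB at -0.77, while ANKRD17 and COX18 lie near 0.

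The genes whose profile over the 6 libraries was closest to that of ALB or AFP were named by the root mean square distance between log2 CPM values centred on each gene's mean, among 9015 other coding genes that averaged 10 CPM or more. For ALB these were ATAD2 at a distance of 0.0220, LIN54, REXO5, RPS6KA3 and NUSAP1 at 0.0467, and AFP itself was at 0.0339, closer than all but ATAD2 and LIN54. For AFP they were MPV17L at 0.0306, IDH1, ATAD2, APOH and NUSAP1 at 0.0412, and ALB was closer than all but MPV17L and IDH1. APOH, a plasma apolipoprotein, was at 416 ± 20.8 CPM with oridonin and 675 ± 33.0 CPM with DMSO (SD, n = 3 each). The measure is a description over 6 libraries and carries the treatment difference as well as the spread within treatments.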

How the data were processed

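Raw counts per Ensembl gene and log2 FPKM values (fragments per kilobase of transcript, scaled to library depth) were used as deposited by the authors. The log2 FPKM table held exactly the 18404 genes with at least 1 count in each library. The submitters' processing notes name hg38 as build and DESeq2 1.10.1 as a tool. Aligner, counter and strandedness were not given in the sources used here, so values of overlapping or near-identical genes are uncertain.

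Counts of all 60504 genes were filtered by filterByExpr, scaled by TMM and tested with edgeR 4.0.16 (glmQLFit with robust estimation, glmQLFTest; R 4.3.3), with treatment as the only term and Benjamini-Hochberg adjustment. Each SE was the absolute log2 fold change over the root of the F statistic. Ratios within libraries were tested by exact permutation in scipy 1.17.1. AFM had no read in 1 library, so its ratios were not computed. The members, the 14 gene lists and the tests were chosen with earlier results of these data known. From each list the called genes with the smallest p (at most 4 for the commoner direction and 2 for the rarer one) and the 2 most abundant uncalled genes were named where space allowed. GPC3, H19, CXCL5, NFIA, NFIB, NFIX and the lincRNAs beside ZHX2 were added after their values were seen. Pairs of libraries within a treatment differed beyond sampling noise (chi-square per degree of freedom of at least 7.22). Alternatives were RLE size factors, total-count scaling, no filter and a filter of 10 CPM in 3 libraries, DESeq2 1.42.0, limma 3.58.1 (voom, and on log2 FPKM with a pseudocount of 0 or 1), a replicate block, and leaving out each library. Some genes of these lists are not reported here.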

Additional observations from a re-analysis of the deposited data

How the results depend on the processing

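ALB, AFP and ZHX2 were called lower under all 15 alternatives, with log2 fold changes of -0.83 to -0.69, -0.77 to -0.63 and -0.38 to -0.27. ZBTB20 was lost with limma on log2 FPKM (1.21) and on log2(FPKM + 1) (0.12), and ran from 0.80 to 1.58 when 1 library was left out, the lowest being without oridonin library 1, when it was not called. It did not pass the filter of 10 CPM. With total-count scaling HNF4A, ANKRD17 and NAA50 turned to 0.036, 0.079 and 0.036. ANKRD17 was at 0.017 with no filter, 0.013 with the filter of 10 CPM, 0.013 on log2 FPKM and 0.013 on log2(FPKM + 1), and at -0.039 to 0.040 when 1 library was left out. IGF2BP1 then ran from -0.0019 to 0.031. None of these 4 genes was called. The genes called around 4q13 numbered 0 with the filter of 10 CPM, which CXCL8 did not pass. Those around 3q13 numbered 1 with DESeq2, 1 on log2 FPKM and 1 on log2(FPKM + 1), and 1 to 3 when 1 library was left out. The difference in the GC to AFP ratio then ran from -0.042 to 0.42. The cause of these shifts was not tested beyond the filter.

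Same-numbered libraries had correlations of their deviations of 0.194, 0.0651 and 0.173, and every library correlated best with its own number. A link between same-numbered libraries was therefore possible. The labels state none, and the reported fit did not take the numbers as pairs. With the replicate block 3850 genes were called higher and 3839 lower, against 3118 and 3214 without it, and ALB, AFP, ZHX2 and ZBTB20 were at -0.77, -0.71, -0.35 and 1.24, all called. Among the other named genes the block changed 4 calls: ZFHX3 was called lower at -0.25 (edgeR adjusted p = 0.000843), LRP2 lower at -1.27 (0.0295), NFIC higher at 0.19 (0.000122) and ATP6V1A higher at 0.15 (0.00462). Depth limits AFM, GC and ZBTB20, which had at most 3, 15 and 66 reads in a library.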

Other observations

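ALB was set beside other transcripts of like abundance, a comparison chosen after the values were seen. In 36 tested genes with at least 500 FPKM in every library, 17 were called lower and 5 higher with oridonin, against 21.3% lower and 20.6% higher over all tested genes. AHSG, the plasma protein fetuin, was the only other gene of that class with a log2 fold change as low as that of ALB, at 2007 ± 37.0 CPM with oridonin and 3545 ± 70.4 CPM with DMSO (SD, n = 3 each). That holds for this cut only. Of the 10 hepatocyte markers 6 were lower, 1 higher and 3 not called. Among them TF, outside that class, had a log2 fold change of -0.96, and APOB had -0.77.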
